A study of Mus musculus with 12 samples.

Results

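The Wnt pathway genes described here are the mouse Wnt ligands, their Frizzled and Lrp receptors, the secreted inhibitors, the Lgr receptors and E3 ligases that set receptor levels, and the intracellular feedback and nuclear factors. They were chosen by gene symbol alone: every Wnt, Fzd, Sfrp, Dkk, Lgr4 to Lgr6 and Nkd gene, with Axin2, Rnf43, Znrf3, Lrp5, Lrp6, Notum, Wif1, Tcf7 and Lef1. The rule found 51 of the 21899 genes in the count table, namely 19 ligands, 10 Frizzled receptors, 2 Lrp co-receptors, 10 secreted inhibitors, 5 Lgr receptors or E3 ligases and 5 intracellular feedback or nuclear factors. Of these, 39 passed the filter on low counts and were tested. The other 12 were not: Wnt3, Wnt3a, Wnt6, Wnt8a, Wnt8b, Wnt9b, Wnt16, Fzd9, Fzd10, Sfrp5, Dkk1 and Dkk4.

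RNA was sequenced from 4T1-LUC tumours, which are mouse mammary carcinoma cells grown under the skin of BALB/c mice that were 4 to 6 weeks old at the start. There were 4 groups of 3 libraries, and every mouse was gavaged each afternoon with 200 µL of liquid. Combination mice received curcumin at 100 mg/kg in corn oil and swam for 30 min. Curcumin mice received the same curcumin in corn oil and did not swim. Swimming mice received corn oil and swam for 30 min, and control mice received corn oil and did not swim. All groups therefore shared the tumour, the strain, the gavage and the corn oil. The model is a graft of 1 cell line at a chest wall or flank site, and the labels say neither which site a library came from nor whether the 3 libraries of a group came from separate animals, so the tests reflect library-to-library spread that may be technical.

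Wnt ligands bind a Frizzled receptor together with Lrp5 or Lrp6. In the canonical branch this spares beta-catenin from a destruction complex, and beta-catenin then acts with factors of the Tcf and Lef family to switch on target genes. Several of those targets, among them Axin2, Nkd1, Notum, Rnf43 and Znrf3, act back on the pathway, which makes their transcripts common readouts of it. In the mammary gland the pathway is known for stem cell maintenance and for tumours driven by ectopic Wnt1, while Wnt5a is the usual example of a ligand that signals without beta-catenin.

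Total counts ran between 15069348 and 17278826 per library, at which 3 counts correspond to between 0.174 and 0.199 CPM (counts per 1000000 counted reads, with TMM scaling of the library totals for all gene values). The spread between libraries differed among the groups. The biological coefficient of variation, the replicate spread in excess of counting error, was 6.47% in combination, 12.4% in curcumin, 16.3% in swimming and 26.7% in control libraries. The low spread of the combination libraries enters the shared error of every comparison. With these 3 libraries replaced by their sum, which leaves that group 1 sample, no Wnt gene was called in any comparison, and none of 14155 genes in any comparison with the combination. The part of the lower sample number in this was not separated from that of the spread. All 6 tumour epithelial markers were detected in every library, with summed levels of 3021 to 3169 CPM in combination, 2576 to 2908 CPM in curcumin, 2860.4 to 3297 CPM in swimming and 3054 to 3189 CPM in control. Markers of host fibroblasts, blood vessels, leukocytes and muscle were detected too, so the libraries hold tumour and host RNA, and in such bulk samples fewer cells of a type and less RNA per cell cannot be told apart.

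The ligand repertoire was led by Wnt7b. By FPKM, the deposited unit that corrects for gene length and allows levels of different genes to be set side by side, Wnt7b averaged 42.8 over the 12 libraries. Wnt10a at 9.64, Wnt7a at 6.58, Wnt9a at 3.06 and Wnt5a at 2.84 FPKM came next. Fzd6 at 29.7 FPKM led the Frizzled receptors, ahead of Fzd1 at 10.2, Fzd7 at 9.50 and Fzd2 at 8.86 FPKM. Both Lrp co-receptors were well expressed, with Lrp5 at 24.6 and Lrp6 at 13.3 FPKM. Among the inhibitors, Sfrp1 averaged 15.8 and Dkk3 7.61 FPKM, while every other inhibitor was below 2 FPKM. Lgr6, a receptor for R-spondins, averaged 16.8 FPKM and was the only Lgr gene above 3 FPKM. Tcf7 at 3.37 and Nkd2 at 2.90 FPKM led the intracellular group, and Axin2 averaged 0.798 FPKM. Wnt3a, Wnt9b and Dkk1 had no count in any of the 12 libraries, where 3 counts were the detection floor.

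**Figure D1:**
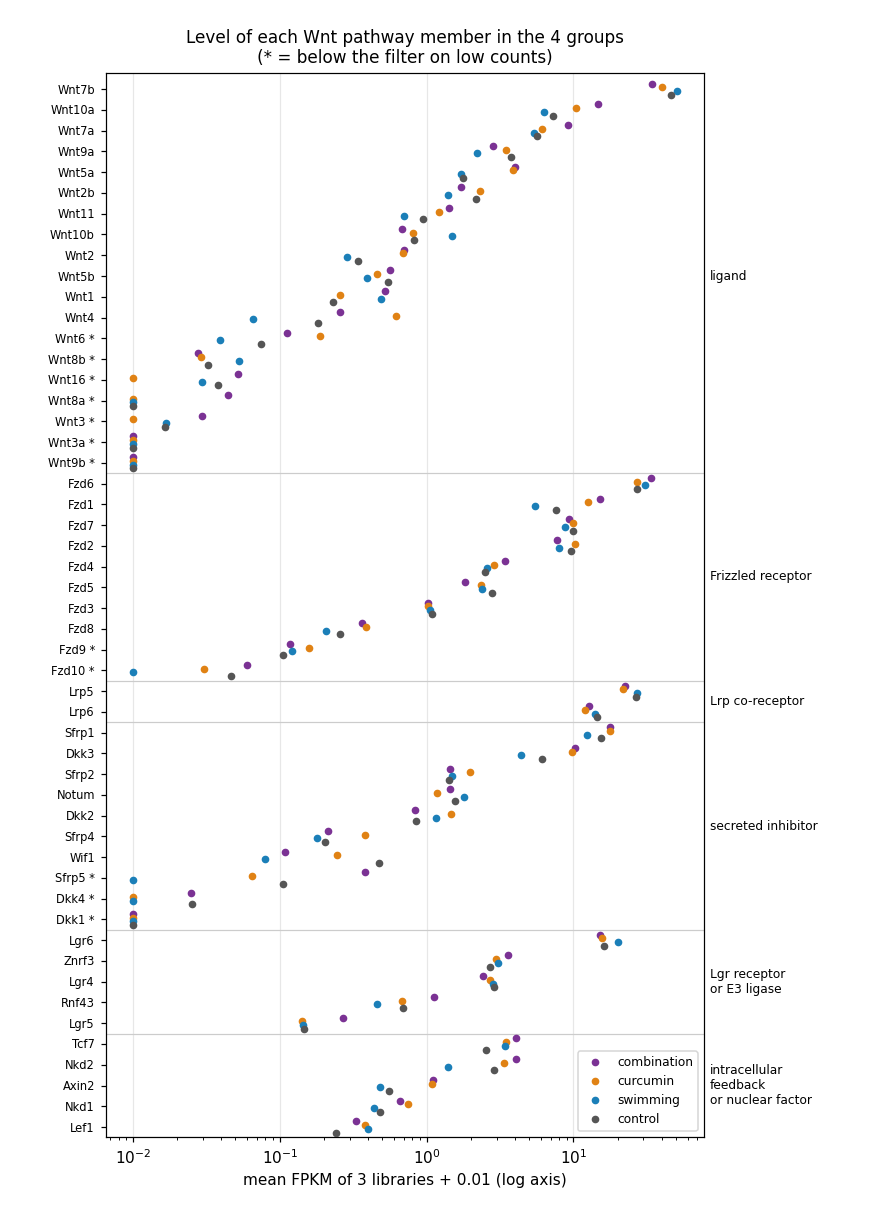
Mean FPKM of 3 libraries per group (log axis, 0.01 added so that zeros can be drawn) for all 51 Wnt genes, arranged by role with the highest at the top of each role, in combination, curcumin, swimming and control tumours. Wnt7b, Fzd6, Lrp5, Sfrp1, Lgr6 and Tcf7 head their roles, and genes marked with an asterisk were below the filter on low counts.

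Across the 6 pairwise comparisons, 9 of 39 Wnt genes passed an adjusted p of 0.05 at least once, where 10.6% of all tested genes did: Wnt7b, Wnt7a, Wnt4, Fzd6, Fzd1, Fzd5, Dkk3, Rnf43 and Nkd2. A test of any difference among the 4 groups called 7 of the 39, namely Wnt7b, Nkd2, Wnt4, Fzd6, Wnt7a, Fzd1 and Dkk3, which is 7 genes against a background in which 5.64% of all 13638 tested genes were called. The edgeR adjusted p-values of these genes lay between 0.0262 for Wnt7b and 0.0426 for Dkk3. DESeq2 called 13 members and 19.5% of all genes in the same test. Leaving out any 1 combination library, curcumin library 3 or swimming library 1 left 0 members. The count was 5 without curcumin library 1, 3 without curcumin library 2 or swimming library 3, 8 without swimming library 2, 12 without control library 1, 13 without control library 2 and 6 without control library 3. The share of all genes called moved with it, at 16.0%, 18.5% and 4.8% without control library 1, 2 and 3, and between 0.203% and 0.275% without 1 combination library. It was 3.54%, 2.7% and 1.03% without curcumin library 1, 2 and 3, and 0.853%, 6.21% and 3.66% without swimming library 1, 2 and 3.

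Wnt7b, the most abundant ligand, was lowest in combination tumours. It had 185, 156 and 164 CPM in combination libraries, 204, 184 and 187 CPM in curcumin libraries, 249.8, 226 and 284 CPM in swimming libraries and 200.3, 236 and 242 CPM in control libraries. The combination libraries lay below all swimming and all control libraries, and overlapped the curcumin libraries. Wnt7b fell in combination relative to swimming tumours, by 0.59 ± 0.11 on the log2 scale (SE, edgeR adjusted p = 0.0125), and relative to control tumours, by 0.43 ± 0.11 (edgeR adjusted p = 0.0414). Swimming stood 0.40 ± 0.11 above curcumin on that scale, with separate libraries, at an edgeR adjusted p of 0.0665.

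Wnt7a, the close relative of Wnt7b, ran the other way. It had 26.1, 32.4 and 30.1 CPM in combination libraries, 18.3, 19.0 and 19.1 CPM in curcumin, 19.5, 19.3 and 13.7 CPM in swimming and 13.9, 21.6 and 17.6 CPM in control. All 3 combination libraries lay above the other 9, which overlapped one another. Wnt7a rose in combination relative to control by 0.74 ± 0.17 (log2 fold change ± SE, edgeR adjusted p = 0.0350) and relative to swimming by 0.76 ± 0.17 (edgeR adjusted p = 0.0253). Against curcumin the difference was 0.65 ± 0.17 at an edgeR adjusted p of 0.0850, and DESeq2 gave an adjusted p of 0.0134 for it. In level Wnt7b still exceeded Wnt7a in every group, with 34.1 ± 3.36 against 9.24 ± 0.903 FPKM in combination tumours and 46.5 ± 5.02 against 5.61 ± 1.12 FPKM in control tumours (SD, n = 3).

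Wnt4, a ligand that acts downstream of progesterone in the normal mammary gland, was read from few counts, close to the floor of 3 in swimming libraries. It had 12, 13 and 26 counts in combination, 22, 43 and 53 in curcumin, 4, 4 and 3 in swimming and 7, 8 and 21 in control libraries. Scaled for depth, this was 1.05 ± 0.513, 2.51 ± 1.07, 0.240 ± 0.0451 and 0.707 ± 0.449 CPM in combination, curcumin, swimming and control (mean ± SD, n = 3). The swimming libraries were the 3 lowest and did not overlap any other group. Wnt4 fell in swimming relative to curcumin by 3.35 ± 0.60 (log2, edgeR adjusted p = 0.0233), on a total of 11 counts in swimming and 118 in curcumin libraries. Curcumin stood 1.81 ± 0.52 above control, the smallest unadjusted p of any Wnt gene in that comparison (0.00390), but the edgeR adjusted p was 0.310.

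Wnt5a, the ligand of the beta-catenin independent branch, was higher in both curcumin-fed groups without passing the test. It had 29.7, 30.0 and 35.1 CPM in combination, 22.2, 39.5 and 26.8 CPM in curcumin, 13.0, 20.9 and 7.39 CPM in swimming and 17.8, 10.2 and 13.1 CPM in control libraries. The combination and curcumin libraries all lay above the swimming and control libraries. The log2 differences were 1.20 ± 0.34 for combination against control (edgeR adjusted p = 0.0614), 1.20 ± 0.34 for combination against swimming (0.0582), 1.10 ± 0.34 for curcumin against control (0.355) and -1.10 ± 0.34 for swimming against curcumin (0.106). DESeq2 called 3 of these 4, with adjusted p-values of 0.00416, 0.00368 and 0.0148 for combination against control, combination against swimming and swimming against curcumin.

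Wnt9a had 12.2, 8.66 and 7.71 CPM in combination, 13.6, 10.1 and 9.96 CPM in curcumin, 7.70, 8.39 and 6.45 CPM in swimming and 9.45, 12.7 and 14.9 CPM in control libraries. Swimming libraries lay below control libraries, a log2 difference of -0.71 ± 0.22 with an unadjusted p of 0.00697 and an edgeR adjusted p of 0.196. Wnt10a and Wnt10b are given as well, chosen after their values were seen. Wnt10a is the second ligand in abundance, and Wnt10b has the opposite order of group means, as Wnt7b also does. Wnt10a had 36.3, 35.4 and 37.3 CPM in combination, 17.5, 34.4 and 23.2 CPM in curcumin, 15, 26.0 and 7.08 CPM in swimming and 32.0, 11.5 and 9.74 CPM in control libraries, and no contrast passed (lowest edgeR adjusted p 0.154). Wnt10b was highest with swimming alone, at 2.78, 1.51 and 2.59 CPM in combination, 2.29, 2.87 and 2.83 CPM in curcumin, 4.75, 4.36 and 6.39 CPM in swimming and 3.33, 1.30 and 3.50 CPM in control libraries. Its difference between combination and swimming was -1.17 ± 0.36 on the log2 scale at an edgeR adjusted p of 0.0651, and DESeq2 called it at an adjusted p of 0.0241.

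Fzd6, the most abundant Frizzled receptor, moved little but evenly. It had 158, 173 and 158 CPM in combination, 136, 118 and 131 CPM in curcumin, 154, 156 and 148 CPM in swimming and 131, 124 and 133 CPM in control libraries. Both groups that swam lay above both groups that did not. Fzd6 rose in combination relative to control by 0.33 ± 0.08 (log2, edgeR adjusted p = 0.0350). Its difference of 0.34 ± 0.08 between combination and curcumin had an edgeR adjusted p of 0.0564, and swimming stood 0.24 ± 0.08 above control at an edgeR adjusted p of 0.209.

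Fzd1 had 67.6, 61.4 and 64.6 CPM in combination, 42.2, 61.3 and 51.6 CPM in curcumin, 23.6, 31.9 and 15.4 CPM in swimming and 33.7, 19.3 and 41.2 CPM in control libraries. The combination libraries were above all others, the curcumin libraries came next, and swimming overlapped control. Fzd1 rose in combination relative to swimming by 1.45 ± 0.29 (log2, edgeR adjusted p = 0.0212). The differences of 1.04 ± 0.28 between combination and control and -1.13 ± 0.29 between swimming and curcumin had edgeR adjusted p-values of 0.0577 and 0.0684.

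Fzd5 was the receptor that fell. It had 13.2, 12.9 and 11.7 CPM in combination, 17.8, 13.9 and 15.7 CPM in curcumin, 16.9, 14.1 and 19.4 CPM in swimming and 18.3, 21.2 and 18.2 CPM in control libraries. The combination libraries were the 3 lowest of all 12. Relative to control, Fzd5 fell in combination by 0.61 ± 0.15 (log2, edgeR adjusted p = 0.0383), while the single measures stood at -0.28 ± 0.14 for curcumin and -0.19 ± 0.14 for swimming, with edgeR adjusted p-values of 0.495 and 0.623.

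Lrp5, the more abundant co-receptor, had 229, 222 and 213 CPM in combination, 196, 222 and 206 CPM in curcumin, 279, 267 and 268 CPM in swimming and 238, 325 and 213 CPM in control libraries. Swimming libraries lay above all curcumin and combination libraries, at log2 differences of 0.39 ± 0.13 for swimming against curcumin (edgeR adjusted p = 0.111) and -0.29 ± 0.13 for combination against swimming (edgeR adjusted p = 0.150). Without control library 2, which held the highest value of 325 CPM, both differences passed, with edgeR adjusted p-values of 0.00698 and 0.0143. Neither comparison contains a control library, and over all genes the share called in that fit was 11.1% for swimming against curcumin and 19.5% for combination against swimming, where it was 1.78% and 6.66% with all 12 libraries. Lrp6, named after its values were seen as the other co-receptor, ran in parallel, with 177 ± 0.664 CPM in combination, 161 ± 4.67 CPM in curcumin, 195 ± 13.6 CPM in swimming and 198 ± 30.2 CPM in control tumours (SD, n = 3), and passed in no comparison.

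Dkk3, a Dickkopf family member that differs from the other Dickkopf proteins in lacking clear binding to Lrp5 and Lrp6, had 35.7, 35.2 and 32.7 CPM in combination, 26.6, 36.6 and 32.7 CPM in curcumin, 15.4, 19.8 and 10.2 CPM in swimming and 23.7, 13.1 and 24.2 CPM in control libraries. Both curcumin-fed groups lay above both groups without curcumin. Dkk3 rose in combination relative to swimming by 1.19 ± 0.26 (log2, edgeR adjusted p = 0.0234), and the difference of -1.08 ± 0.26 between swimming and curcumin had an edgeR adjusted p of 0.0536.

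Dkk2, which binds Lrp6, was highest in the groups given a single measure, although no contrast passed. It had 2.72, 2.97 and 3.6 CPM in combination, 5.18, 5.29 and 5.40 CPM in curcumin, 4.02, 4.89 and 4.26 CPM in swimming and 3.81, 2.25 and 3.21 CPM in control libraries. Curcumin and swimming libraries lay above all control and all combination libraries. The interaction, the log2 change by which the combination departs from the sum of the single changes, was -1.28 ± 0.33 at an edgeR adjusted p of 0.168, and DESeq2 called it at an adjusted p of 0.0394.

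Wif1, a secreted protein that binds Wnt ligands, was read from few counts, 4, 7 and 1 in combination, 5, 18 and 3 in curcumin, 1, 2 and 5 in swimming and 22, 25 and 10 in control libraries. The control libraries lay above the swimming and the combination libraries and overlapped the curcumin libraries. Log2 differences against control were -2.65 ± 0.82 for swimming and -2.17 ± 0.77 for combination, with edgeR adjusted p-values of 0.191 and 0.104. Sfrp1, the most abundant secreted inhibitor, had 76.9, 83.6 and 74.3 CPM in combination, 55.4, 95.3 and 75.9 CPM in curcumin, 58.1, 55.1 and 53.8 CPM in swimming and 91.6, 54.4 and 55.3 CPM in control libraries. Its groups overlapped except for combination above swimming, at 0.49 ± 0.21 on the log2 scale (edgeR adjusted p = 0.158).

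Rnf43, an E3 ligase that removes Frizzled receptors from the cell surface, had 7.02, 7.51 and 7.58 CPM in combination, 3.31, 6.60 and 3.02 CPM in curcumin, 2.94, 2.91 and 3.20 CPM in swimming and 4.42, 5.03 and 3.97 CPM in control libraries. The combination libraries were the 3 highest, the swimming libraries lay below control, and curcumin library 2 alone stood near the combination. Rnf43 rose in combination relative to swimming by 1.29 ± 0.27 (log2, edgeR adjusted p = 0.0214). Its interaction was 1.34 ± 0.38 at an edgeR adjusted p of 0.212. Znrf3, the sister ligase, named after its values were seen, had 28.2, 29.2 and 27.6 CPM in combination, 26.5, 21.8 and 20.4 CPM in curcumin, 27.2, 21.7 and 25.4 CPM in swimming and 19.9, 22.2 and 20.9 CPM in control libraries, and stood 0.43 ± 0.12 above control in the combination at an edgeR adjusted p of 0.0574 (DESeq2 adjusted p = 0.0204).

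Lgr6 had 103, 105 and 107 CPM in combination, 88.5, 121 and 103 CPM in curcumin, 136, 113 and 174 CPM in swimming and 133, 70.2 and 123 CPM in control libraries. The combination libraries lay below the swimming libraries, at -0.43 ± 0.22 on the log2 scale, with an edgeR adjusted p of 0.233. Its partners, the R-spondin ligands, were below the filter: Rspo1 had 7, 8, 2 and 4 counts over the 3 libraries of combination, curcumin, swimming and control, Rspo3 had 14, 12, 9 and 14, Rspo4 had 3, 10, 4 and 1, and Rspo2 was counted in control library 2 alone, at 12.

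Nkd2, a naked cuticle family protein that binds Dishevelled, had the smallest edgeR p of the 39 tested members in combination against swimming. It had 19.2, 21.0 and 18.6 CPM in combination, 13.1, 18.5 and 15.7 CPM in curcumin, 6.43, 7.47 and 6.83 CPM in swimming and 16.8, 7.40 and 16.5 CPM in control libraries. Combination was above every other library, swimming was at the bottom, and control library 2 fell among the swimming libraries. Nkd2 rose in combination relative to swimming by 1.51 ± 0.26 (log2, edgeR adjusted p = 0.0116) and fell in swimming relative to curcumin by 1.19 ± 0.26 (edgeR adjusted p = 0.0420). Against control it stood at -0.97 ± 0.26 in swimming, with an edgeR adjusted p of 0.138 and a DESeq2 adjusted p of 0.0227, and at 0.53 ± 0.25 in combination (edgeR adjusted p = 0.187). The interaction was 1.29 ± 0.35 at an edgeR adjusted p of 0.200 and a DESeq2 adjusted p of 0.0404. Without control library 2 the edgeR adjusted p was 6.93e-04 for swimming against control and 0.00134 for the interaction, in a fit that called 4.36% and 3.29% of all genes.

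Axin2, the classical feedback target of beta-catenin, was chosen after its values were seen because it is the usual readout of the canonical branch. It had 6.42, 5.75 and 6.07 CPM in combination, 4.94, 6.40 and 6.17 CPM in curcumin, 3.21, 3.17 and 1.57 CPM in swimming and 4.78, 1.06 and 2.97 CPM in control libraries. Both curcumin-fed groups lay above both groups without curcumin. The log2 differences were 1.05 ± 0.41 for combination against control (edgeR adjusted p = 0.128), 1.20 ± 0.41 for combination against swimming (0.0880), 0.99 ± 0.41 for curcumin against control (0.422) and -1.14 ± 0.41 for swimming against curcumin (0.141). Without control library 2, whose value was the lowest of all, the edgeR adjusted p was 0.00998 for combination against swimming and 0.0208 for swimming against curcumin, in the fit whose shares over all genes are given with Lrp5. Tcf7, a nuclear partner of beta-catenin that T cells also express, had 9.93, 16.0 and 11.2 CPM in combination, 10.5, 9.08 and 11.1 CPM in curcumin, 10.6, 8.26 and 12.7 CPM in swimming and 6.06, 8.76 and 7.99 CPM in control libraries, and combination stood 0.71 ± 0.22 above control on the log2 scale (edgeR adjusted p = 0.0737). The summed T cell markers, 7 of 8 of which are in the table, were 62.1 to 68.8 CPM in combination and 49.6 to 115 CPM in control libraries.

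**Figure D2:**
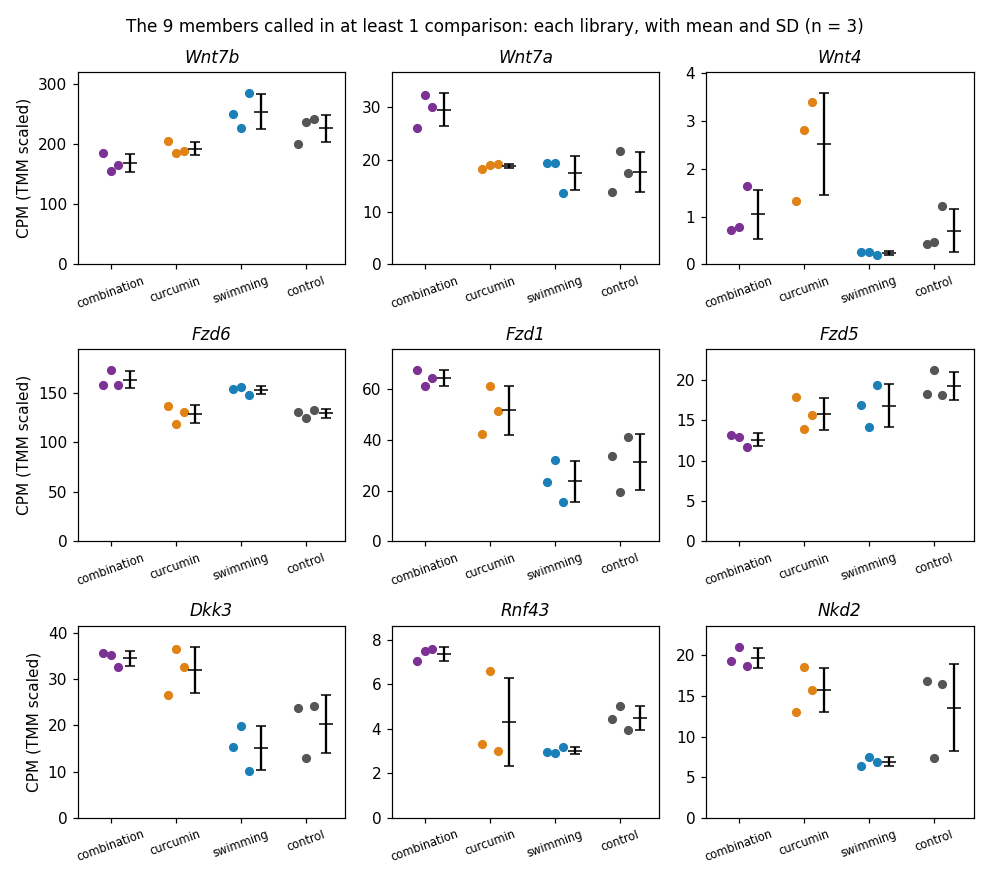
CPM of the 9 Wnt genes called in at least 1 comparison, 1 point per library, with the group mean and SD (n = 3) beside the points. Nkd2, Rnf43, Fzd1 and Wnt7a are highest in the combination libraries, Wnt7b and Fzd5 are lowest there, and control library 2, the middle point of its group, is the low control value for Fzd1, Dkk3 and Nkd2.

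Fzd1, Rnf43 and Nkd2 were called higher together in combination than in swimming, and the 250 bases before their transcription starts are shown to set them side by side for the core letters that factors of the Tcf and Lef family recognise, CTTTGA and CTTTGT, read on either strand. The sequences are RefSeq's on GRCm38.p6, each 5′ to 3′ on the gene's own strand, at chr5:4758217-4758466 on the minus strand for Fzd1, chr11:87662837-87663086 on the plus strand for the first of the 2 starts of Rnf43 and chr13:73847632-73847881 on the minus strand for Nkd2. Capitals mark a match.
Fzd1: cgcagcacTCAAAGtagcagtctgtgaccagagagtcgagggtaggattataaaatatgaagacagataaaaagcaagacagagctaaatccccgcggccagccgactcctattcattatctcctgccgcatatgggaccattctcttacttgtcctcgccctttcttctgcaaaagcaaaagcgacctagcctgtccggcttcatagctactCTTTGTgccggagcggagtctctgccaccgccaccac
Rnf43: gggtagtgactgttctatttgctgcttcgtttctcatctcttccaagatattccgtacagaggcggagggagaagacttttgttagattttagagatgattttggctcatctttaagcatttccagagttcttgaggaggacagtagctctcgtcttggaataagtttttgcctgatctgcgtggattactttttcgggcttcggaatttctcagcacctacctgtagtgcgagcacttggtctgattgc
Nkd2: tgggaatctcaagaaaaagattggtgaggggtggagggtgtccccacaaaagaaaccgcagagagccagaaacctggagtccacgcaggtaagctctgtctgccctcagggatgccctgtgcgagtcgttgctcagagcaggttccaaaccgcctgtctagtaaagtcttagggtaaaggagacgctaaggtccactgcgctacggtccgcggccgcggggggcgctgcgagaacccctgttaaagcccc
Fzd1 held TCAAAG, the reverse complement of CTTTGA, at -242 and CTTTGT at -37 from the start, while neither the Rnf43 nor the Nkd2 window held either motif. Dkk3 and Wnt7a were also called higher in combination than in swimming. No window was found for Dkk3, and the Wnt7a window held neither motif. Promoter windows were found for 34 of the 51 members, of which 8 held at least 1 of the motifs (Dkk1, Dkk2, Fzd1, Fzd7, Lef1, Wnt5b, Wnt8b and Wnt11). Counted by window, since some members have several, 8 of 42 did. Across the 32841 promoter windows of this length, 27.6% held either motif, 13.8% the first and 16.5% the second. A match describes letters and not a bound site, and its absence says only that these letters are not in this window.

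Curcumin alone was set against corn oil to ask what curcumin does to the tumour. No Wnt gene passed the test, with 0 of 39 members called by edgeR and 0 by DESeq2, against a background of 0% of all tested genes by edgeR and 0.55% by DESeq2. Of the 39, 9 had an unadjusted p under 0.05, where 10.9% of all genes did. The smallest unadjusted p-values were those of Wnt4, Dkk2 and Wnt5a. Dkk2 stood 0.77 ± 0.23 above control (edgeR adjusted p = 0.341). The libraries of the groups did not overlap for 10 members, 8 of them higher and 2 lower in curcumin, against 14.6% of all genes (7.41% higher and 7.22% lower). Log2 differences were above 0 for 23 of 39 members and 50.3% of all genes. All 5 intracellular feedback or nuclear factors had positive log2 differences, with a median of 0.62, and both Lrp co-receptors had negative ones of about equal size, Lrp5 at -0.31 ± 0.13 and Lrp6 at -0.30 ± 0.10 (edgeR adjusted p = 0.410 and 0.357). Their median was 0.12 over the members and 0.00 over all genes. No member was called when any 1 library was left out.

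Swimming alone was set against corn oil without swimming. Again 0 of 39 members were called, where 0.308% of all genes were, and 8 had an unadjusted p under 0.05, where 13% of all genes did. Nkd2, Wif1 and Wnt9a had the smallest unadjusted p-values and all stood lower in swimming, as given above. DESeq2 called 1 member, Nkd2, and 2.32% of all genes. Libraries did not overlap for 7 members, 3 higher and 4 lower in swimming, against 13.1% of all genes (5.83% higher and 7.24% lower). Log2 differences were above 0 for 17 members and 48% of all genes, with medians of -0.10 over the members and -0.01 over all genes. Without control library 2, where 4.36% of all genes were called, 2 of 40 members were, Nkd2 and Wnt2b, both lower in swimming, by 1.27 ± 0.16 and 0.77 ± 0.20 on the log2 scale (edgeR adjusted p = 6.93e-04 and 0.0462).

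The combination was set against control to ask what both measures do together. Fzd6 and Wnt7a rose, and Fzd5 and Wnt7b fell, so that 4 of 39 members were called, against 4.86% of all genes (2.43% higher and 2.43% lower). That is 1 ligand and 1 Frizzled receptor in each direction, and no co-receptor, inhibitor, Lgr receptor, E3 ligase or intracellular factor. Unadjusted p-values were under 0.05 for 14 members, against 26.6% of all genes, and libraries did not overlap for 15 members, 12 higher and 3 lower in combination, against 32.1% (16.3% higher and 15.8% lower). Log2 differences were above 0 for 25 members and 47.2% of all genes, with medians of 0.33 over the members and -0.02 over all genes. All 5 intracellular feedback or nuclear factors were positive, with a median of 0.53. DESeq2 called 9 members, against 12.1% of all genes, adding Wnt5a, Fzd1, Dkk3, Tcf7 and Znrf3, all higher. The edgeR count was 0 without any 1 combination library, curcumin library 3, swimming library 1 or control library 3, and 1 without control library 2. It was 3 without curcumin library 1 or 2, 7 without swimming library 2, 6 without swimming library 3 and 8 without control library 1. Over all genes, the share called was 0.0289% to 0.145% without 1 combination library. It was 2.83%, 3.86% and 1.3% without curcumin library 1, 2 and 3. Without swimming library 1, 2 and 3 it was 1.97%, 5.52% and 5.82%. Without control library 1, 2 and 3 it was 15.8%, 2.29% and 2.35%. Over the 12 fits that each left out 1 library, Wnt7a kept its call in 6, Fzd6 and Fzd5 in 5 each and Wnt7b in 3. The count was 1 in a fit of these groups alone and 2 with a separate spread for each group in limma voom. Those fits called 0.994% and 2.95% of all genes.

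The combination was set against curcumin to ask what swimming adds to curcumin. No member was called by edgeR, against 0.851% of all genes, and 8 had an unadjusted p under 0.05, against 18% of all genes. DESeq2 called 2, Fzd6 and Wnt7a, both higher in combination, and 5.13% of all genes. Fzd6, Wnt7a and Dkk2 had the smallest p-values, and Dkk2 stood at -0.77 ± 0.23 (edgeR adjusted p = 0.114). Libraries did not overlap for 13 members, 10 higher and 3 lower, against 37% of all genes (18.6% higher and 18.5% lower). Log2 differences were above 0 for 23 members and 48.7% of all genes, with medians of 0.06 over the members and -0.01 over all genes. The count was 2 without control library 1, 3 without control library 2, 4 in a fit of these groups alone and 5 with a spread for each group, where 1.63%, 5.17%, 16.0% and 14.2% of all genes were called.

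The combination was set against swimming to ask what curcumin adds to swimming, and this comparison called the most Wnt genes. Nkd2, Fzd1, Rnf43, Dkk3 and Wnt7a rose and Wnt7b fell, 6 of 39 members, against 6.66% of all genes (3.5% higher and 3.15% lower). By role these were 2 of 12 ligands, 1 of 8 Frizzled receptors, 1 of 7 secreted inhibitors, 1 of 5 Lgr receptors or E3 ligases and 1 of 5 intracellular factors. Unadjusted p-values were under 0.05 for 16 members, against 27.4% of all genes, and libraries did not overlap for 21 members, 14 higher and 7 lower, against 40.6% (20.4% higher and 20.2% lower). Log2 differences were above 0 for 26 members and 49.4% of all genes, with medians of 0.26 over the members and -0.01 over all genes. DESeq2 called 11, against 13.8% of all genes, adding Wnt4, Wnt5a, Wnt11 and Axin2 as higher and Wnt10b as lower. The count was 2, 0 and 1 without combination library 1, 2 and 3, 1 without swimming library 1 and 2 without swimming library 3. It was 11 without control library 1 and 13 without control library 2, where 11.9% and 19.5% of all genes were called. That share was 0.644%, 0.225% and 0.585% without combination library 1, 2 and 3, and 0.788% and 1.17% without swimming library 1 and 3. Of the 12 fits that each left out 1 library, Nkd2 and Wnt7b were each called in 10, and Wnt7a, Dkk3, Rnf43 and Fzd1 in 7, being lost without any 1 combination library or swimming library 1 or 3. The log2 change of Nkd2 stayed between 1.45 and 1.57 and that of Wnt7b between -0.66 and -0.50. A fit of these groups alone called 14, and a spread for each group called 13, each with 20.5% of all genes called.

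Swimming and curcumin were set against each other as single measures. Wnt4 and Nkd2 fell in swimming relative to curcumin, 2 of 39 members, against 1.78% of all genes (0.88% higher and 0.902% lower). Unadjusted p-values were under 0.05 for 15 members, against 21.8%, and libraries did not overlap for 16 members, 6 higher and 10 lower in swimming, against 30.9% (15.5% higher and 15.3% lower). Log2 differences were above 0 for 15 members and 47.2% of all genes, with medians of -0.27 over the members and -0.02 over all genes. DESeq2 called 7, against 7.57% of all genes, namely Wnt4, Nkd2, Dkk3, Fzd1 and Wnt5a as lower and Wnt7b and Fzd6 as higher in swimming. The count was 1 without any 1 combination library or curcumin library 1, and 0 without curcumin library 2 or 3 or swimming library 1 or 3. It was 5 without swimming library 2. Without control library 1 it was 4 and without control library 2 it was 11, where 3.87% and 11.1% of all genes were called. That share was 0.47% to 0.485% without 1 combination library and 1.03%, 0.101% and 0.0796% without curcumin library 1, 2 and 3. Without swimming library 1, 2 and 3 it was 0.065%, 1.94% and 0.738%. Nkd2 kept this call in 3 of the 12 fits and Wnt4 in 8. The count was 5 in a fit of these groups alone and 8 with a spread for each group, with 4.98% and 6.65% of all genes called. These comparisons share libraries: those with swimming use the same 3 swimming libraries, and those with the combination the same 3 combination libraries.

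No member had a called interaction between curcumin and swimming by edgeR, against 0.249% of all genes. There were 6 with an unadjusted p under 0.05, against 11% of all genes. DESeq2 called 2, against 1.53% of all genes, namely Nkd2 and Dkk2, with log2 interactions of 1.30 ± 0.38 and -1.27 ± 0.37. Leaving out control library 2 brought the edgeR count to 1 of 40, Nkd2, and the share of all genes called to 3.29%.

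**Figure D3:**
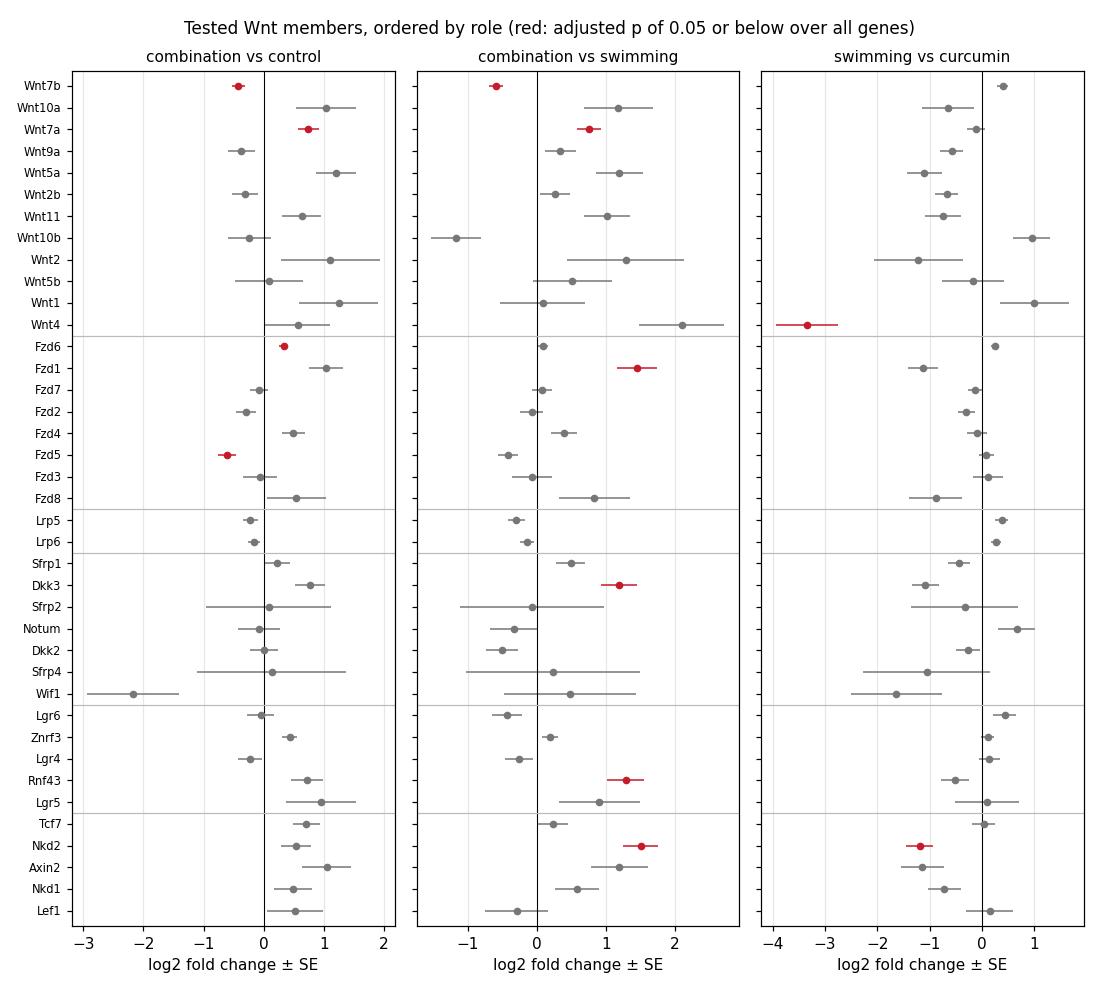
Log2 fold change with its SE for the 39 tested Wnt genes, ordered by role, in combination against control, combination against swimming and swimming against curcumin, with an edgeR adjusted p of 0.05 or below in red. The called genes are 4, 6 and 2 in these comparisons, and Nkd2, at 1.51 and -1.19, is called in both comparisons that involve swimming.

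Fzd1, Dkk3, Axin2 and Wnt5a are set here beside the fibroblast markers. For each, every library of both curcumin-fed groups lay above every library of both groups without curcumin. The share of all tested genes with this order was not counted, so it is not known whether it is more frequent among Wnt genes. In single comparisons, libraries lay higher without overlap for 16.3% of all genes in combination against control. That share was 20.4% in combination against swimming and 7.41% in curcumin against control. Other members, among them Nkd2, Wnt10a, Wnt11 and Sfrp1, had this order in their group means but not in every library. Of the 10 fibroblast markers, all were detected in every group, with summed levels of 5253 to 5669.7 CPM in combination, 4344 to 5351 CPM in curcumin, 1806 to 3341 CPM in swimming and 1225 to 4559.7 CPM in control libraries. As a mean log2 level centred on all libraries, the list stood at 0.32 to 0.35 in combination, 0.21 to 0.60 in curcumin, -0.65 to -0.45 in swimming and -1.28 to 0.60 in control, where control library 2 held the lowest value. None of the 10 was called in combination against swimming, where their median log2 difference was 0.95, and 9 of 10 were positive. In swimming against curcumin none was called, all 10 were negative, and the median was -0.85. In combination against control 6 of 10 were positive, with a median of 0.34, and in swimming against control all 10 were negative, with a median of -0.28. Mean levels in swimming and control were 23.6 and 31.4 CPM for Fzd1 and 15.1 and 20.3 CPM for Dkk3. They were 2.65 and 2.94 CPM for Axin2 and 13.8 and 13.7 CPM for Wnt5a. The part of the fibroblast markers in the differences of these genes was not tested.

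Endothelial markers, all 8 detected in every group, summed to 413 to 479 CPM in combination, 277 to 286 CPM in curcumin, 136 to 229 CPM in swimming and 264 to 389 CPM in control libraries, and 7 of 8 rose in combination relative to swimming. Adipocyte markers summed to 23.8 to 26.3 CPM in combination, 8.69 to 9.28 CPM in curcumin, 8.90 to 9.84 CPM in swimming and 6.42 to 14.2 CPM in control libraries, with Adipoq, Cidec and Lep at 0 in all curcumin libraries, Lep at 0 in all swimming libraries and Pck1 and Lep at 0 in all control libraries. Neutrophil markers, all 6 detected in every group, summed to 32.9 to 33.6 CPM in combination, 52.7 to 142 CPM in curcumin, 105 to 114 CPM in swimming and 52.3 to 232 CPM in control libraries. Of the 5 tested, 3 fell in combination relative to swimming and 2 relative to control, with median log2 differences of -2.87 and -2.68. Macrophage markers, all 8 detected in every group, summed to 866 to 871 CPM in combination, 1039 to 1624 CPM in curcumin, 660 to 1079 CPM in swimming and 850 to 1773 CPM in control libraries. Of these, 2 of 8 fell in combination relative to curcumin. Skeletal muscle markers summed to 93.7 to 98.4 CPM in combination, 360 to 473 CPM in curcumin, 29.1 to 219 CPM in swimming and 13.4 to 506 CPM in control libraries. Control library 2 held the lowest muscle value. All 9 mitochondrially encoded genes had positive log2 differences in combination against control, with a median of 0.52, and 3 of them rose. Of the 4 tested adipocyte markers, 3 rose in combination relative to control. Keratinocyte and skin appendage markers summed to 159 to 166 CPM in combination and 106 to 123 CPM in curcumin libraries. They summed to 40.9 to 121 CPM in swimming and 69.2 to 113 CPM in control libraries. Cell cycle markers summed to 2146 to 2234 CPM in combination and 1813 to 1904 CPM in curcumin libraries. Those sums were 1069 to 1768 CPM in swimming and 668 to 1909 CPM in control libraries. The part of these cells, of the cell cycle and of RNA quality in the differences of Wnt7a, Rnf43, Fzd1 and the other called genes was not tested. Of the 6 tumour epithelial markers, 0 were called in combination against swimming, and their median log2 difference was -0.06.

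**Figure D4:**
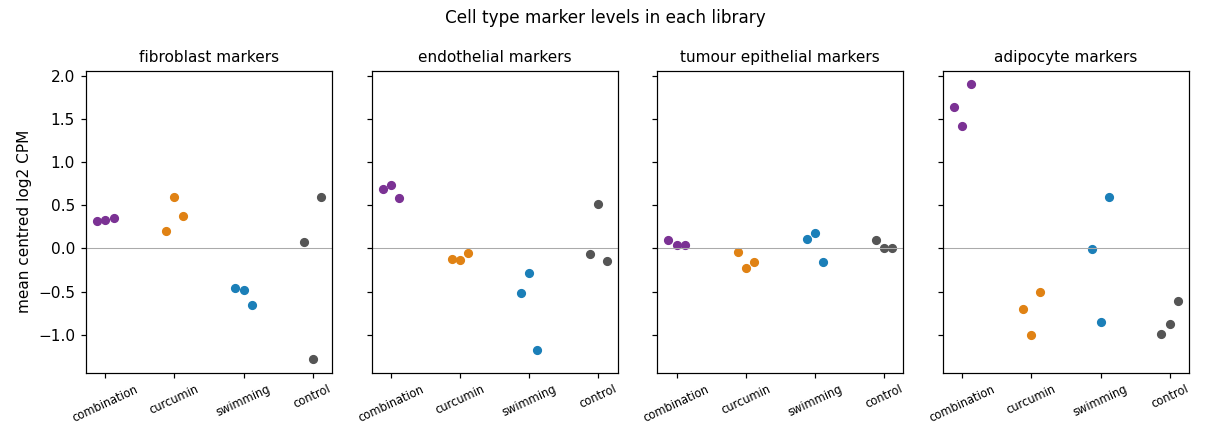
Mean log2 CPM of fibroblast, endothelial, tumour epithelial and adipocyte marker lists, centred on the mean of the 12 libraries, with 1 point per library. Fibroblast markers are 0.32 to 0.35 in combination and -0.65 to -0.45 in swimming libraries, and control library 2 is lowest at -1.28.

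Pathway genes outside the symbol rule were followed in 7 lists of 97 genes, of which 83 were tested. By edgeR none was called for curcumin or swimming alone against control, where 0% and 0.308% of all genes were. DESeq2 called 3 and 1 of the 83, against 0.55% and 2.32% of all genes. In combination against control, 4 rose and 3 fell, 7 of 83 companions against 4.86% of all genes. Ctnnb1, which encodes beta-catenin itself, fell by 0.46 ± 0.11 (log2, edgeR adjusted p = 0.0443), with 607, 560 and 591 CPM in combination and 695, 982 and 735 CPM in control libraries, and the groups did not overlap. Dvl2, a Dishevelled that relays the receptor signal, fell by 0.48 ± 0.13 (edgeR adjusted p = 0.0484), with 45.6 ± 2.90 CPM in combination and 63.6 ± 12.9 CPM in control tumours (SD, n = 3). Igfbp4, a binding protein of insulin-like growth factors that also antagonises Wnt receptors, fell by 0.54 ± 0.08 (edgeR adjusted p = 0.0112), with 574 ± 12.6 CPM in combination and 831 ± 34.7 CPM in control tumours. These members of the list of extracellular modulators and of the cytoplasmic core are named as measured, and neither list was tested as a set.

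Ccn4, a secreted matricellular protein first described as induced by Wnt1, rose in combination relative to control by 0.86 ± 0.14 (log2, edgeR adjusted p = 0.0126), with 73.6, 79.7 and 74.6 CPM in combination and 43.3, 43.5 and 38.8 CPM in control libraries. Prickle1, a planar polarity protein, rose by 1.20 ± 0.24 (edgeR adjusted p = 0.0248), with 37.5 ± 2.04 CPM in combination and 16.3 ± 1.90 CPM in control tumours (SD, n = 3). Daam1, a formin that binds Dishevelled, rose by 0.48 ± 0.08 (edgeR adjusted p = 0.0153), and Kremen1, a receptor for Dickkopf proteins, rose by 0.33 ± 0.08 (edgeR adjusted p = 0.0454). The median log2 difference was 0.07 over the 83 companion genes and 0.21 over the 20 tested target genes, of which 16 were positive and 1, Ccn4, was called. The count of 7 companions was 0 without any 1 combination library, 4 without any 1 curcumin library, swimming library 1, control library 2 or control library 3, 9 and 10 without swimming library 2 and 3, and 19 without control library 1. Without control library 2, the log2 difference of Ctnnb1 was -0.28 and that of Dvl2 -0.30, and Dvl2 also missed the threshold with RLE scaling. Over all genes, 15.8% were called without control library 1 and 2.29% without control library 2, and the shares of the other fits are given above with the members. DESeq2 called 14 companions, against 12.1% of all genes.

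In combination against swimming, 7 of 83 companions were called, against 6.66% of all genes. Of these 4 rose, namely Ccn4, Kremen1, Prickle1 and Ror1, a receptor for Wnt5a, and 3 fell, namely Ctnnb1, Igfbp4 and Tle2, a Groucho family co-repressor. Ror1 had 6.30, 6.18 and 6.51 CPM in combination and 2.54, 4.69 and 2.44 CPM in swimming libraries, a log2 change of 0.97 ± 0.25 (edgeR adjusted p = 0.0390). Ctnnb1 had 586 ± 23.8 CPM in combination and 854 ± 10.8 CPM in swimming tumours (SD, n = 3), a fall of 0.54 ± 0.11 (edgeR adjusted p = 0.0214). In combination against curcumin Daam1 alone was called, higher by 0.45 ± 0.08 (edgeR adjusted p = 0.0267). That is 1 of 83 companions, against 0.851% of all genes. In swimming against curcumin, 2 of 83 companions were called, against 1.78% of all genes. Sox9, a transcription factor of progenitor cells, rose by 0.97 ± 0.16 (edgeR adjusted p = 0.0159). Tnks, the tankyrase that marks Axin for degradation, rose by 0.33 ± 0.07 (edgeR adjusted p = 0.0420). The count of 7 against swimming was 0 without any 1 combination library or swimming library 1, 2 without swimming library 3, 4 without curcumin library 3, 10 without swimming library 2, 11 without control library 1 and 17 without control library 2, where 11.9% and 19.5% of all genes were called. Sox9 was lost without curcumin library 2 or 3 or swimming library 1, and Daam1 against curcumin without any 1 combination or curcumin library. Tnks kept its call without any 1 control library but lost it without any other single library. Without swimming library 3, the log2 change against swimming was 0.44 for Ccn4 and 0.74 for Prickle1. None of the 83 had a called interaction by edgeR over all libraries. Of 86 tested, 2 did without control library 2 and 1 without swimming library 2, where 3.29% and 0.701% of all genes did.

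Where no companion of a list was called in a comparison with control, values are given for some companions of small p in these lists. The lists of extracellular modulators, non-canonical receptors and target genes are not covered here. In the Wnt secretion list Porcn, the enzyme that attaches the lipid Wnt ligands need, stood at -0.60 ± 0.21 in combination, -0.49 ± 0.21 in curcumin and -0.01 ± 0.21 in swimming (log2 against control), with edgeR adjusted p-values of 0.1, 0.426 and 0.991. Among nuclear partners, Tle2 stood at -0.70 ± 0.20 in combination (edgeR adjusted p = 0.0583) and Pygo2, a beta-catenin co-activator, at -0.45 ± 0.12 in swimming (edgeR adjusted p = 0.130). In the cytoplasmic core, Apc2, a relative of the tumour suppressor Apc, stood at -0.70 ± 0.18 in curcumin and -0.52 ± 0.18 in swimming (edgeR adjusted p = 0.281 and 0.240).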

How the data were processed

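RNA-seq was read from 12 tumour libraries, 3 in each of 4 groups set by the sample titles. The deposited table holds, for every gene, whole-number read counts and FPKM values. The aligner was HISAT2 2.0.5 and the genome mm9, per the labels' protocols, while the submitters' processing notes name GRCm39, cutadapt, TopHat2, HISAT2, HTSeq 0.9.1 and DESeq 1.30.0. Which genome underlies the counts is therefore not settled here, no gene coordinates of the table are printed, and whether counting used strand is not given in the sources used here, so reads from overlapping antisense genes cannot be told apart. The FPKM deposited by the authors equal counts per unit of gene length and of library total, checked on all 184877 nonzero values (relative tolerance 1e-05). They served only to compare levels between genes.

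Counts were tested with edgeR 4.0.16 in R 4.3.3: TMM scaling, filterByExpr (minimum count 10, minimum total 15, leaving 13638 genes), robust quasi-likelihood fit of 4 group means over all 12 libraries with 8 residual degrees of freedom, and Benjamini-Hochberg adjustment over all tested genes. A gene was called at an adjusted p of 0.05 or below. CPM are TMM scaled, log2 changes carry a SE derived from the F statistic, and the scripts were tested on simulated data. Robust estimation was not part of the design as first written. It was chosen after seeing the data, because it returned the counts of called genes of an earlier fit, and the plain fit is given as an alternative. Alternatives were DESeq2 1.42.0, RLE scaling, other filters, fits of the compared groups alone, a replicate block, limma 3.58.1 voom with weights per group, the combination libraries summed, each library left out, and dispersion without robust estimation.

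The members, the companion lists and the marker lists were chosen with earlier results of these data known. Members named are those called in any contrast, the 3 of smallest p in each pairwise contrast and the interaction, and the highest mean FPKM in each role. Companions named are those called, and some of small p against control in the Wnt secretion, nuclear partner and cytoplasmic core lists. The R-spondins are named as the partners of Lgr6. For the other lists, companions that were not called against control are not named. Others are marked as chosen after their values were seen. Libraries of a group all differed by more than counting noise. Counting intervals and floors (3 counts) cover counting error only.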

Additional observations from a re-analysis of the deposited data

Results flagged for a closer look

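Sfrp5, a secreted Frizzled-related inhibitor, was below the filter on low counts and so not among the 39 tested members. It had 35 counts summed over the combination libraries (14, 10 and 11) and 9 over the control libraries (7, 0 and 2), a depth-scaled ratio of 3.96 with a 95% exact interval of 1.87 to 9.37 that covers counting error only. It drew attention because each combination library held more counts than any control library. In the fit without that filter its edgeR adjusted p was 0.31 for combination against control and 0.0522 for combination against swimming. Curcumin libraries held 5 counts, all in library 1, and swimming libraries held 0. Adipocyte markers, which were also highest in the combination libraries, summed to 23.8 to 26.3 CPM there and to 6.42 to 14.2 CPM in control libraries, and their part in the Sfrp5 counts was not tested.

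Wnt6, also below the filter, had 18 counts summed over the curcumin libraries (4, 9 and 5) and 7 over the control libraries (3, 1 and 3), a ratio of 2.78 with a 95% exact interval of 1.11 to 7.88 for counting error. Here too each curcumin library held more counts than any control library. In the fit without the filter its edgeR adjusted p was 0.633 for curcumin against control.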

How the results depend on the processing

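Counts of Wnt members called are given in the order swimming against control, combination against control, combination against curcumin, combination against swimming, swimming against curcumin, interaction and any difference, where edgeR called 0, 4, 0, 6, 2, 0 and 7; for curcumin against control every setting gave 0. DESeq2 called 1, 9, 2, 11, 7, 2 and 13. Limma voom with weights per group called 0, 2, 5, 13, 8, 0 and 3, and with the combination libraries summed every count was 0. Fits of the compared groups alone called 1, 4, 14 and 5 in combination against control, curcumin and swimming and in swimming against curcumin. RLE scaling called 1 in combination against curcumin. Leaving out 1 library gave 0 to 2, 0 to 8, 0 to 3, 0 to 13, 0 to 11, 0 to 1 and 0 to 13.

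Replicate numbers did not pair the libraries: of 18 same-numbered pairs of groups, 2 had deviations correlated above 0.1 (range -0.251 to 0.165), and 5 libraries correlated best with their own number. With the number as a replicate block the counts were 0, 1, 0, 5, 1, 0 and 1.

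Over all genes, edgeR called 0, 42, 663, 116, 908, 243, 34 and 769 with curcumin against control first, DESeq2 75, 316, 1656, 700, 1886, 1032, 209 and 2664, and voom 0, 0, 403, 1933, 2797, 907, 36 and 256. With the combination libraries summed these were 0, 3, 0, 0, 0, 10, 0 and 0, and with the replicate block 1, 4, 220, 28, 496, 57, 11 and 277. Fits of the compared groups alone called 0, 0, 132, 2121, 2707 and 659 in the pairwise comparisons. Leaving out 1 library gave 0 to 8, 0 to 603, 4 to 2182, 3 to 715, 31 to 2697, 9 to 1537, 0 to 455 and 28 to 2560. Without robust estimation, the plain fit, the interaction gave 19 over all genes. The members called were 5, 7, 3 and 8 in combination against control, combination against swimming, swimming against curcumin and any difference. In the same order, that fit called 5.17%, 6.88%, 1.9% and 5.73% of all genes.

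Alternative values were counted only for members called in a contrast or among its 3 smallest p-values, in that contrast. Of these values, 401 stayed on the same side of the threshold, 90 lost the call, 27 gained it and none changed direction. Other named genes, among them Axin2, Lrp5, Lgr6 and Sfrp1, are not in these totals, so the stability of their direction is not covered. The 401 include values of genes that were not called in the main fit and stayed uncalled. Only a called gene can lose its call, so the 90 losses all fall on called genes. Over the 12 fits that each left out 1 library, calls were kept in 3 fits (Wnt7b, combination against control) to 10 fits (Nkd2, combination against swimming). The cause of these changes was not tested. The values of Wnt4 and Wif1 rest on few counts, and 3 of the 12 members below the filter had no count in any library.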
